A study of Argyrosomus regius with 12 samples.

Results

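A set of 150 assembled genes of the meagre spleen was studied, whose level was higher after lipopolysaccharide (LPS) than after saline at 4 h and was still higher at 24 h. The members were chosen by their measured levels, out of 42480 assembled genes in all. Levels are CPM, each gene's count divided by the total count of its library and put on the usual scale of parts of 1000000. A mean of at least 2 CPM over the 12 libraries was asked for, which 20614 genes had. The mean of the LPS libraries, with 0.5 CPM added, had to be at least 1.6 times that of the phosphate-buffered saline (PBS) libraries at 4 h and again at 24 h, and 403 genes met this. These were ranked by a score, the log2 ratio of the lowest LPS library to the highest of the 6 PBS libraries, again with 0.5 CPM added, and the 150 highest scores were taken. LPS 4 h replicate 2 was used neither for the 4 h ratio nor for the score.

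The groups were LPS 24 h, LPS 4 h, PBS 24 h and PBS 4 h, each of 3 libraries. Meagre (Argyrosomus regius) is a bony fish of coastal seas, and all groups were spleens of its juveniles of 22 g held at 22 °C and injected into the body cavity. LPS fish received 10 µg/g fish of LPS from Photobacterium damselae subsp. piscicida Lg41/01, a strain of a Gram-negative bacterium that infects marine fish, and PBS fish received the saline alone. Each library came from 1 pool of 4 spleens, so that 12 fish stood behind a group and the spread between replicates was a spread between pools. No untreated fish were among the 12 libraries, so PBS fish were the baseline and all animals had been handled and injected.

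LPS is a component of the outer membrane of Gram-negative bacteria. In mammals it is sensed by Toll-like receptor 4, which acts through NF-kappaB to switch on genes for cytokines, chemokines and other defence proteins. Some of these genes are known for a short first wave, whereas others stay on for longer or are switched on later by the cytokines themselves. The spleen is a main immune organ of bony fish and filters antigen from the blood. How far fish share the mammalian route to sense LPS is not settled, so the mammalian account is given as background alone.

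The genes bear the names of a Trinity assembly. In these, the DN and c numbers together mark a cluster of reads, here called a component, g a gene and i an isoform. The deposited table does not pair these names with gene symbols, so neither the function of a member nor the markers of the spleen could be looked up. Members are therefore given by their rank on the score, and 6 of them also by name. Library totals ran from 29614365 to 56556752 counts. LPS 4 h replicate 2 lay closer to the other groups than to its own. Its log2 (CPM + 0.5) over the 20464 genes that were not members correlated across genes with r of 0.879 and 0.875 with LPS 4 h replicates 1 and 3, and with r of 0.928 to 0.968 with the 9 libraries of the other groups. It is therefore shown separately from replicates 1 and 3 throughout. Isoforms were summed for each gene, and members with near-identical copies elsewhere in the assembly could share reads with them.

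By the rule's own values, the members ran from weak to steep. The score was 2.60 at rank 1, had a median of 0.213 and was -0.0377 at rank 150. It was above 0 for 136 members, whose 5 LPS libraries in use were all above all 6 PBS libraries. At the threshold, the lowest LPS library of rank 150 had 40.2 CPM and its highest PBS library 41.3 CPM. The gene at rank 151, just outside, had 77.7 CPM and 80.0 CPM for these libraries, and a score of -0.0408. The list therefore ends in a region where neighbouring genes differ little, and its length is set by the number taken rather than by a break in the values.

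The median member had an LPS 24 h level over PBS 24 h of 1.13 on the log2 scale, with quartiles of 0.90 and 1.83 and a range of 0.68 to 7.38. At 4 h, replicates 1 and 3 over PBS gave a median of 1.25, quartiles of 0.88 and 1.85 and a range of 0.69 to 7.40. A ratio of at least 2-fold was seen in 94 members at 24 h and in 96 at 4 h, and one of at least 8-fold in 19 at 24 h and in 14 at 4 h. Most members were thus raised modestly, and a minority strongly. In whole spleens, more cells of a type and more RNA per cell cannot be told apart. Members were of moderate abundance, with a median of 24.5 CPM over all libraries and a range of 2.02 to 412 CPM, beside a median of 12.7 CPM over the 20614 genes.

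**Figure D1:**
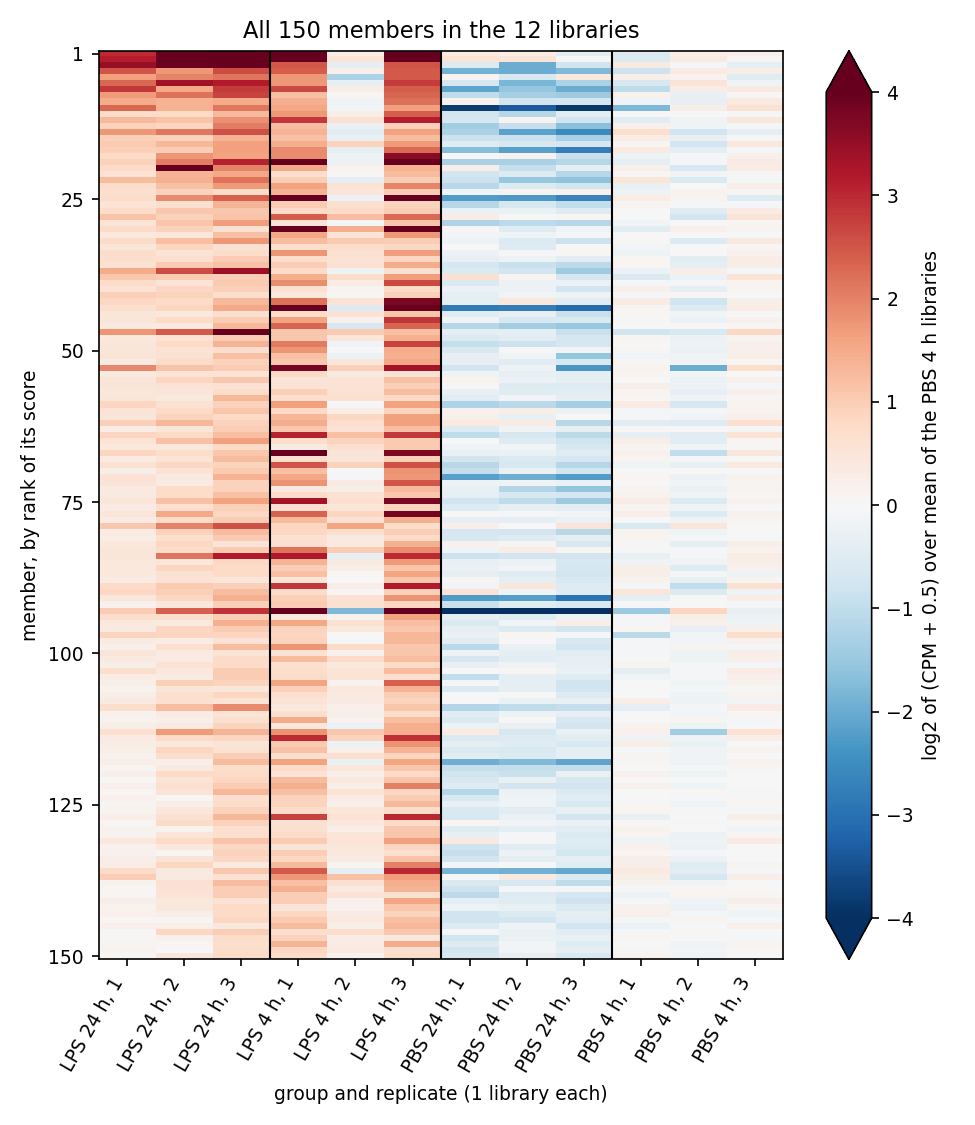
Each row is 1 of the 150 members, ordered by score from rank 1 at the top, and each column 1 library of LPS 24 h, LPS 4 h, PBS 24 h or PBS 4 h. Colour gives log2 of (CPM + 0.5) over the mean of the PBS 4 h libraries, cut off at 4 in each direction; LPS 4 h replicate 2 is pale between the red columns of replicates 1 and 3, and the PBS 24 h columns are bluer than the PBS 4 h columns.

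The members at ranks 1 and 2 were TRINITY_DN1383_c3_g1 and TRINITY_DN1383_c1_g1, which share a DN number but not a component. TRINITY_DN1383_c3_g1 had 29.9, 104 and 129 CPM in the LPS 24 h pools, 98.0, 4.02 and 168 CPM in LPS 4 h replicates 1 to 3, 4.51, 4.03 and 2.39 CPM in the PBS 24 h pools, and 2.06, 4.02 and 3.97 CPM in the PBS 4 h pools. TRINITY_DN1383_c1_g1 had 161, 376 and 640 CPM in the LPS 24 h pools, 543, 26.0 and 844 CPM in LPS 4 h replicates 1 to 3, 26.2, 26.5 and 18.5 CPM in the PBS 24 h pools, and 11.8, 22.9 and 18.9 CPM in the PBS 4 h pools. In both, every LPS pool other than LPS 4 h replicate 2 was well clear of every PBS pool, and LPS 4 h replicate 2 was at the PBS level. Log2 CPM of the pair correlated with r = 0.996 over the 12 libraries, which share their depth and treatment. The level of both at 24 h lay between the PBS level and the highest 4 h pool, and the 24 h pools themselves spread over several-fold.

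The member at rank 3 showed another course, with 374, 508 and 749 CPM in the LPS 24 h pools, 186, 24.8 and 192 CPM in LPS 4 h replicates 1 to 3, 22.5, 8.0 and 18.5 CPM in the PBS 24 h pools, and 42.0, 31.2 and 25.3 CPM in the PBS 4 h pools. All of its LPS 24 h pools were above its highest LPS 4 h pool. At the foot of the list, the member at rank 150 had 40.2, 51.2 and 64.9 CPM in the LPS 24 h pools, 62.6, 41.3 and 63.7 CPM in LPS 4 h replicates 1 to 3, 23.8, 30.0 and 24.3 CPM in the PBS 24 h pools, and 41.3, 33.5 and 38.2 CPM in the PBS 4 h pools. Its lowest LPS 24 h pool overlapped the PBS 4 h pools, and its log2 ratio of LPS 24 h was 0.99 to PBS 24 h and 0.46 to PBS 4 h. Rank 3 was picked here after its values were seen.

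The rule asked that a member be raised at both times, but it did not ask how much of the 4 h rise remained. The difference in mean CPM between LPS and PBS at 24 h was 72.5% of that at 4 h in the median member, with quartiles of 39.8% and 107%. It was 100% or more in 44 members, below 50% in 49, below 25% in 21 and below 10% in 4. LPS 4 h replicate 2 was left out of the 4 h mean. In that library the median member had 0.197 of the rise of the other LPS 4 h pools. The shares with it in use were not counted. The 24 h difference was taken over PBS 24 h, whose log2 ratio to PBS 4 h had a median of -0.45. A lower PBS 24 h level makes the share kept larger. With LPS 4 h replicate 2 left out, the word sustained therefore fits the members to very different degrees, and some kept little of their 4 h rise.

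Across the LPS pools, most members were lower at 24 h than in LPS 4 h replicates 1 and 3. The log2 ratio of the LPS 24 h mean to that of these 2 libraries had a median of -0.48, with quartiles of -0.93 and -0.15, and was below -1 in 35 members, between -1 and 0 in 93 and at or above 0 in 22. Over all 20614 genes the median of the same ratio was 0.23 with library totals and 0.01 with TMM scaling, the trimmed mean of M-values method of edgeR, under which the members' median was -0.74. The members thus lay further below the other genes than their own ratios show. All 3 LPS 24 h pools were below both of these LPS 4 h libraries in 72 members, where 20.6% of genes had this order. All were above in 6 members, where 40.1% of genes had it. The rule had chosen the members on these same LPS libraries and left out genes not raised at 4 h. The contrast with all genes was therefore partly set by the rule.

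The change from 4 h to 24 h was tested with edgeR's quasi-likelihood test over all genes that passed its expression filter, all 150 members among them, with Benjamini-Hochberg adjustment and an adjusted p below 0.05 counted as called. Without LPS 4 h replicate 2, 74 members were lower in LPS 24 h than in LPS 4 h, against 14.4% of the genes tested, and 1 was higher, against 15.8%. The log2 fold changes of the 74 ran from -6.35 to -0.59 with a median of -1.26. With all 12 libraries, 8 members were lower and 1 higher, against 4.65% and 3.14% of the genes tested, and the median log2 fold change over the 150 members was -0.46 in place of -0.74. The count was 9 with all 12 libraries and 75 without LPS 4 h replicate 2. With LPS 4 h replicate 1 or 3, or any LPS 24 h pool, left out in its place, 0 of the 150 members were called. Over all genes, 0 to 260 were called in those fits. The same pools had been used to choose the members, and without replicate 2 the 4 h group held 2 pools.

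TRINITY_DN1203_c4_g1, at rank 30, had the largest fall among the members. It had 1.45, 1.70 and 1.27 CPM in the LPS 24 h pools, 88.3, 2.68 and 116 CPM in LPS 4 h replicates 1 to 3, 0.701, 0.328 and 0.566 CPM in the PBS 24 h pools, and 0.371, 0.837 and 0.757 CPM in the PBS 4 h pools. Its LPS 24 h pools were close to the PBS pools, though above all of them. Of its 4 h difference in CPM, by replicates 1 and 3, 0.930% was left. Its log2 fold change of LPS 24 h over PBS 24 h was 1.47 (SE 0.37, edgeR adjusted p = 0.0399) without LPS 4 h replicate 2. With all 12 libraries it was 1.46 (SE 1.05, edgeR adjusted p = 0.480). The rule had used that contrast, so nothing is read from it. Its log2 fold change of LPS 24 h over LPS 4 h was -6.35 (SE 0.39, adjusted p = 3.13e-06 by edgeR) without LPS 4 h replicate 2 and -5.79 (SE 1.11, adjusted p = 0.0294) with all 12 libraries. In this gene LPS 4 h replicate 2 was above all PBS pools too, by 1.25 on the log2 scale over the highest of them, the largest such distance among the members.

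TRINITY_DN19704_c0_g1, at rank 19, had the next largest fall. Its LPS 24 h pools had 2.21, 5.41 and 11.7 CPM, LPS 4 h replicates 1 to 3 had 189, 0.731 and 298 CPM, the PBS 24 h pools had 0.0914, 0.0895 and 0.154 CPM, which are 3, 3 and 6 counts, and the PBS 4 h pools had 0.608, 0.893 and 1.33 CPM. The LPS 24 h pools were far below LPS 4 h replicates 1 and 3 and still above all PBS pools. The log2 fold change of LPS 24 h over LPS 4 h was -5.53 (SE 0.57, edgeR adjusted p = 9.95e-05) without LPS 4 h replicate 2 and -4.95 (SE 1.45, adjusted p = 0.0627) with all 12 libraries. With all 12 libraries it was called by DESeq2, with an adjusted p of 0.00262, and by edgeR when genes were kept at a CPM above 1 in 3 libraries, with an adjusted p of 0.0490.

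TRINITY_DN12155_c0_g1, at rank 37, was the one member that edgeR called higher at 24 h. DESeq2 called 3 members higher with all 12 libraries, against 2622 of the 42120 genes tested. Without LPS 4 h replicate 2 it called 3, against 5744 of 42134. TRINITY_DN12155_c0_g1 had 4.04, 9.43 and 17.0 CPM in the LPS 24 h pools, and 2.28, 0.914 and 2.03 CPM in LPS 4 h replicates 1 to 3. The PBS 24 h pools had 0.579, 0.448 and 0.103 CPM, and the PBS 4 h pools 0.878, 1.45 and 1.03 CPM. All LPS 24 h pools were above all other libraries. The log2 fold change of LPS 24 h over LPS 4 h was 1.98 (SE 0.59, edgeR adjusted p = 0.0266) without LPS 4 h replicate 2 and 2.33 (SE 0.58, adjusted p = 0.0379) with all 12 libraries. This call was lost in 12 of 20 alternatives, with an adjusted p of 0.0862 with the replicate block and 0.145 in the edgeR fit of the compared groups alone.

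TRINITY_DN1278_c0_g1, at rank 47, had the second largest increase and was abundant. It had 307, 494 and 1495 CPM in the LPS 24 h pools, 197, 186 and 210 CPM in LPS 4 h replicates 1 to 3, 69.8, 69.1 and 48.8 CPM in the PBS 24 h pools, and 51.8, 59.5 and 159 CPM in the PBS 4 h pools. Here LPS 4 h replicate 2 was close to replicates 1 and 3, and LPS 24 h replicate 3 was far above the other LPS 24 h pools. The log2 fold change of 1.62 (SE 0.63) did not pass edgeR's test, with an adjusted p of 0.0801 without LPS 4 h replicate 2 and 0.0607 with all libraries. DESeq2 called it higher at 24 h, with an adjusted p of 0.0137 without LPS 4 h replicate 2 and 0.00795 with all libraries. Without LPS 24 h replicate 3 the edgeR log2 fold change was 0.95 (adjusted p = 0.204). For the top pair the test was also not passed, with log2 fold changes of -0.87 (SE 0.53, adjusted p = 0.241) for TRINITY_DN1383_c3_g1 and -1.11 (SE 0.46, adjusted p = 0.0911) for TRINITY_DN1383_c1_g1 without LPS 4 h replicate 2.

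**Figure D2:**
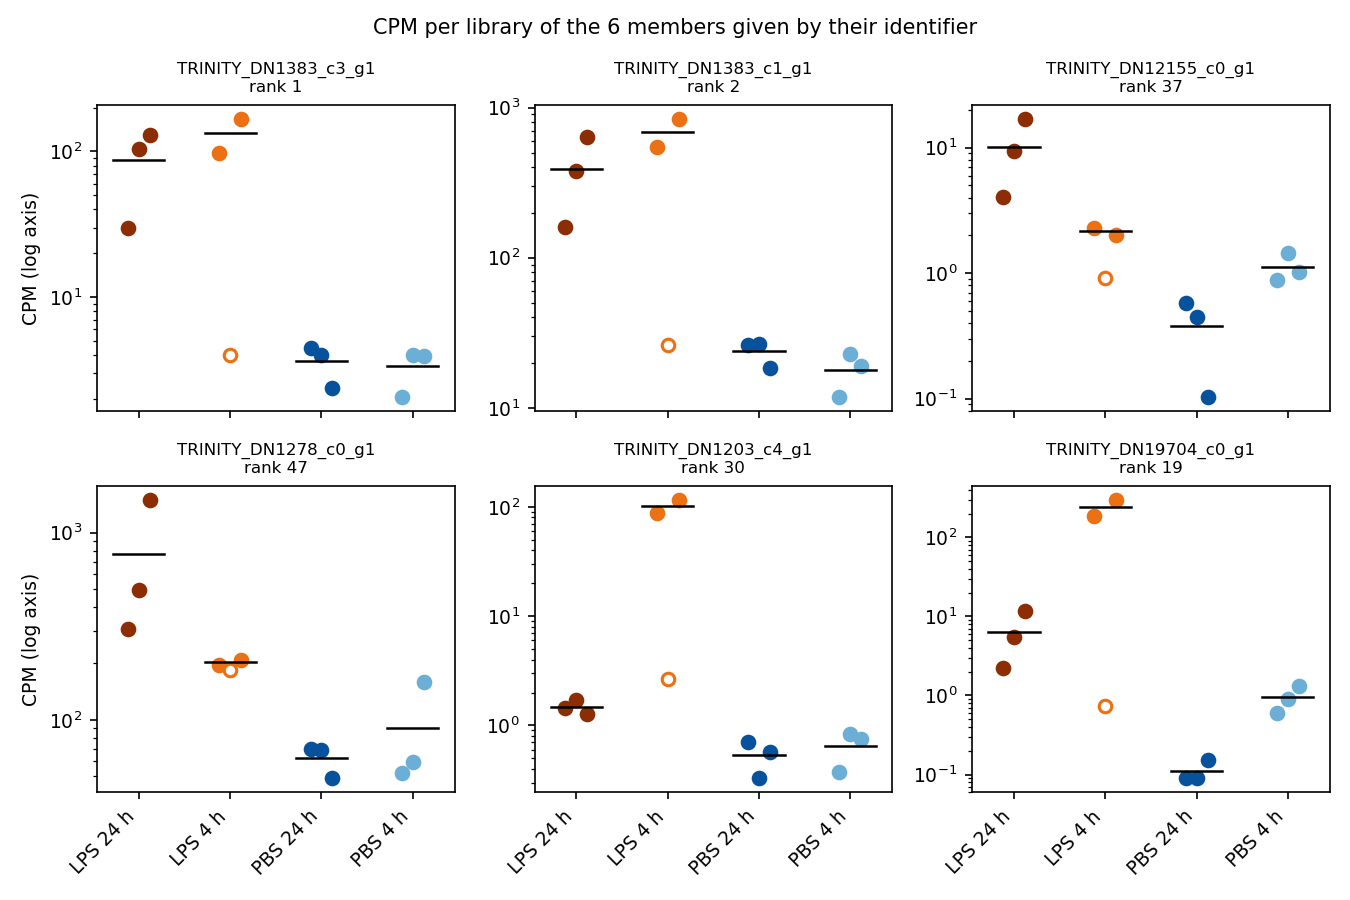
CPM on a log axis in each library of the 6 members given by name; filled points are libraries, the open point is LPS 4 h replicate 2 and the bar is the mean of the filled points of a group. At ranks 1 and 2 the open point lies among the PBS points, at rank 30 the LPS 24 h points lie just above the PBS points, and at rank 37 the LPS 24 h points lie above all others.

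The members' level in the PBS pools was also lower at 24 h than at 4 h. The log2 ratio of PBS 24 h to PBS 4 h had a median of -0.45 over the members, with quartiles of -0.75 and -0.27 and a range of -5.09 to 0.40. All PBS 24 h pools were below all PBS 4 h pools in 88 members, against 10.8% of the 20614 genes. By edgeR's test, 12 members were lower in PBS 24 h without LPS 4 h replicate 2, against 0.438% of the genes tested. None of the members was called with all 12 libraries, against 0.0154%. An unadjusted edgeR p below 0.05 was then found in 37 members, against 2016 of the 32542 genes tested. DESeq2 called 11 members, against 342 of the 42120 genes it tested. The log2 fold changes of the 12 members called by edgeR ran from -6.14 to -1.19, with a median of -2.65. The fitted log2 fold change with all 12 libraries was above 0 in 13 of the 150, so the direction was shared by most members and the size was large in a few. The rule had used the same PBS pools. Its 24 h ratio favours genes with a low PBS 24 h level, whereas its 4 h ratio favours a low PBS 4 h level. The contrast with all genes was therefore partly set by the rule, and how far was not tested.

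The clearest case was rank 93, which also had the highest mean CPM over the LPS pools of all members. It had 62.7, 162 and 231 CPM in the LPS 24 h pools, 2154, 8.50 and 2034 CPM in LPS 4 h replicates 1 to 3, 0.488, 0.269 and 0.489 CPM in the PBS 24 h pools, and 10.8, 56.5 and 24.6 CPM in the PBS 4 h pools. The PBS 4 h pools were far above the PBS 24 h pools, and LPS 4 h replicate 2 was below all PBS 4 h pools. The log2 fold change of PBS 24 h over PBS 4 h was -6.14 (SE 0.75, edgeR adjusted p = 0.00791) without LPS 4 h replicate 2, and the adjusted p was 0.417 with all libraries. Rank 25 had the same order of groups when LPS 4 h replicate 2 is set aside, with 106, 239 and 333 CPM in the LPS 24 h pools, 1348, 53.8 and 1569 CPM in LPS 4 h replicates 1 to 3, 13.2, 12.6 and 9.46 CPM in the PBS 24 h pools, and 78.2, 68.7 and 43.9 CPM in the PBS 4 h pools. Injected control fish thus carried some of these RNAs at 4 h at a level not seen at 24 h. No uninjected fish were measured, so injection, handling and the hour of sampling cannot be told apart. Rank 25 was picked after its values were seen.

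The lower PBS level at 24 h bears on what was counted as a rise at that time. All LPS 24 h pools were above all PBS 4 h pools in 137 members, against 14.2% of genes, a value that the score itself had used. The LPS 24 h mean over the PBS 4 h mean had a median of 0.77 on the log2 scale, with quartiles of 0.58 and 1.04 and a range of 0.27 to 4.52, smaller than the 1.13 over PBS 24 h. The highest PBS library was a PBS 4 h pool in 135 members, and the lowest LPS library was an LPS 24 h pool in 136. The score therefore mostly set an LPS 24 h pool against a PBS 4 h pool, across times.

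**Figure D3:**
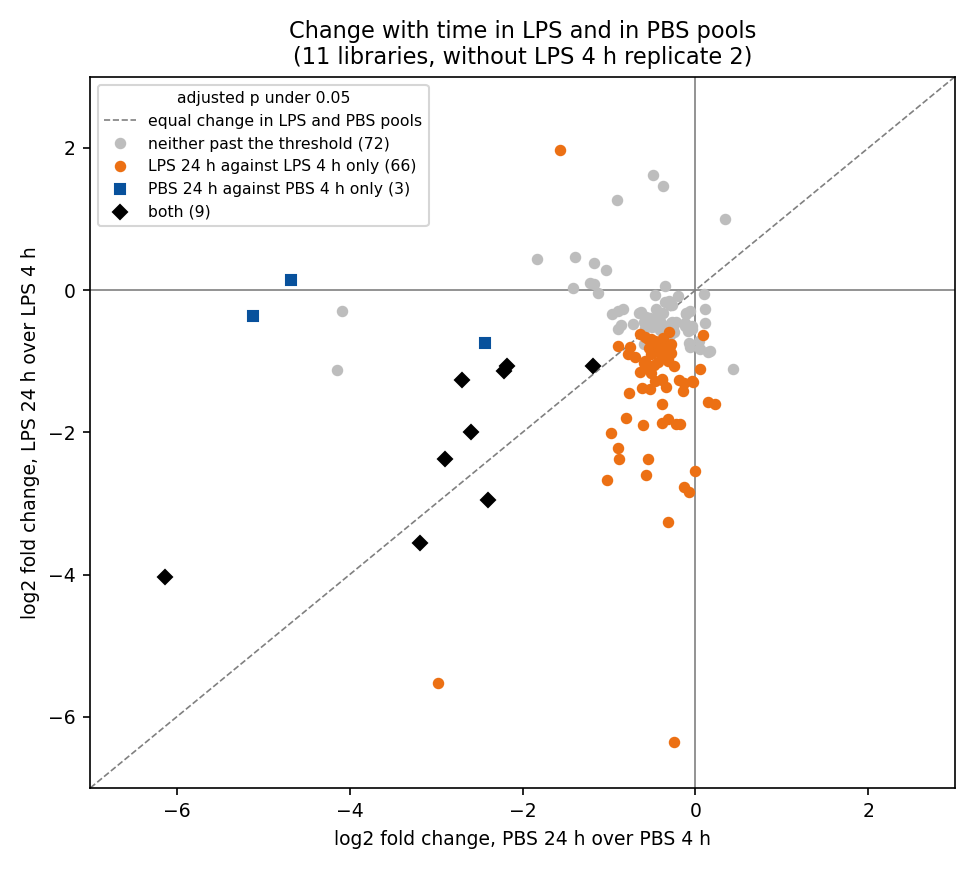
Each point is 1 of the 150 members, with the log2 fold change of PBS 24 h over PBS 4 h on the x axis and of LPS 24 h over LPS 4 h on the y axis, from the edgeR fit of 11 libraries without LPS 4 h replicate 2. Colours and shapes give which change had an adjusted p below 0.05; most points lie left of and below the zero lines, and 9 members were called in both.

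Whether LPS acted more strongly at 24 h than at 4 h was tested as an interaction, over all genes. With all 12 libraries, none of the members was called by edgeR, against 0.0154% of the genes tested. An unadjusted edgeR p below 0.05 was found in 23 members, against 5664 of the 32542 genes tested. DESeq2 called 9 members, against 1048 of the 42120 genes it tested. Without LPS 4 h replicate 2, the LPS effect was larger at 24 h in 11 members, against 9.53% of the genes tested, and smaller in 18, against 6.67%. Over the members these are 7.33% and 12.0%, so the share with a larger effect was near that of all genes. Since the rule asked for a raised level at both times, it also limited how far the effects could differ.

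In the 11 members with a larger LPS effect at 24 h, the PBS level moved more than the LPS level by the median, though not in TRINITY_DN12155_c0_g1 or at rank 3. Their median log2 fold change of LPS 24 h over LPS 4 h was 0.03, with a range of -1.26 to 1.98, whereas that of PBS 24 h over PBS 4 h was -2.18, with a range of -5.12 to -0.91. In the 18 members with a smaller effect the order was the opposite, with medians of -1.94 for LPS and -0.32 for PBS. TRINITY_DN12155_c0_g1 was among the 11, with a difference of 3.55 (SE 0.83, edgeR adjusted p = 0.0154). Its PBS 24 h pools had only 19, 15 and 4 counts. Its log2 fold change of LPS 4 h over PBS 4 h in this fit was 1.22 and was not called (edgeR adjusted p = 0.153). TRINITY_DN1203_c4_g1 had the largest decrease of the 18, a difference of -6.10 (SE 0.54, edgeR adjusted p = 0.000136). With all 12 libraries the differences of these 2 members were 3.89 (edgeR adjusted p = 0.131) and -5.54 (adjusted p = 0.183).

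The contrasts used by the rule are given for completeness, and nothing is read from the members' counts in them. Without LPS 4 h replicate 2, LPS was higher than PBS in 119 members at 24 h, beside 5.18% of the genes tested, and in 146 members at 4 h, beside 11.1%. With all 12 libraries, edgeR called 62 members at 24 h, beside 2.98% of the genes tested. At 4 h it then called none of the members, beside 0.00307%. An unadjusted edgeR p below 0.05 was found in 147 members, beside 6407 of the 32542 genes tested. DESeq2 called 127 members, beside 2288 of the 42120 genes it tested. The members' median log2 fold change at 4 h was 1.31 with all 12 libraries and 1.59 without LPS 4 h replicate 2, and it was positive in all 150 in both fits.

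LPS 4 h replicate 2 was the only library that the 4 h ratio and the score had not used, and so the members' level in it was not fixed by the rule beyond its part in the mean CPM. It was above all 6 PBS libraries in 100 of the 150 members (66.7%), against 16.2% of the 20614 genes. Taking the PBS 4 h pools alone, it was above them in 102 members, against 25.9% of genes, and below all of them in 12. It reached at least the lower of LPS 4 h replicates 1 and 3 in 10 members and exceeded the higher in 1. The median member had 0.197 of the rise of replicates 1 and 3 over the PBS 4 h mean, with quartiles of 0.0285 and 0.416. This pool thus had most members at a slightly raised level, well short of the other LPS 4 h pools. The rule favours genes whose highest PBS pool is low, which by itself raises the count above the share over all genes.

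Members with high scores were less often above the PBS libraries in this pool. TRINITY_DN1203_c4_g1, at rank 30, was above all of them, yet had only 0.020 of the 4 h rise in LPS 4 h replicate 2. Of ranks 1 to 25, 5 were above all PBS libraries in LPS 4 h replicate 2, and of ranks 26 to 150, 95 of 125 were. The median share of the 4 h rise was -0.00088 for ranks 1 to 25 and 0.266 for the rest. In successive groups of 25 ranks the counts were 5, 17, 21, 15, 21 and 21. The 50 members not above the PBS libraries had the larger rises elsewhere, with a median log2 ratio of LPS 24 h over PBS 24 h of 2.11, against 1.05 for the 100 members above them. The lowest level relative to PBS was at rank 93, where the log2 ratio to the highest PBS library was -2.66. Among the 253 genes that met both ratios but ranked below 150, 88 were above all PBS libraries in this pool. Whether the injection, the pooling or the library made this pool differ was not tested.

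**Figure D4:**
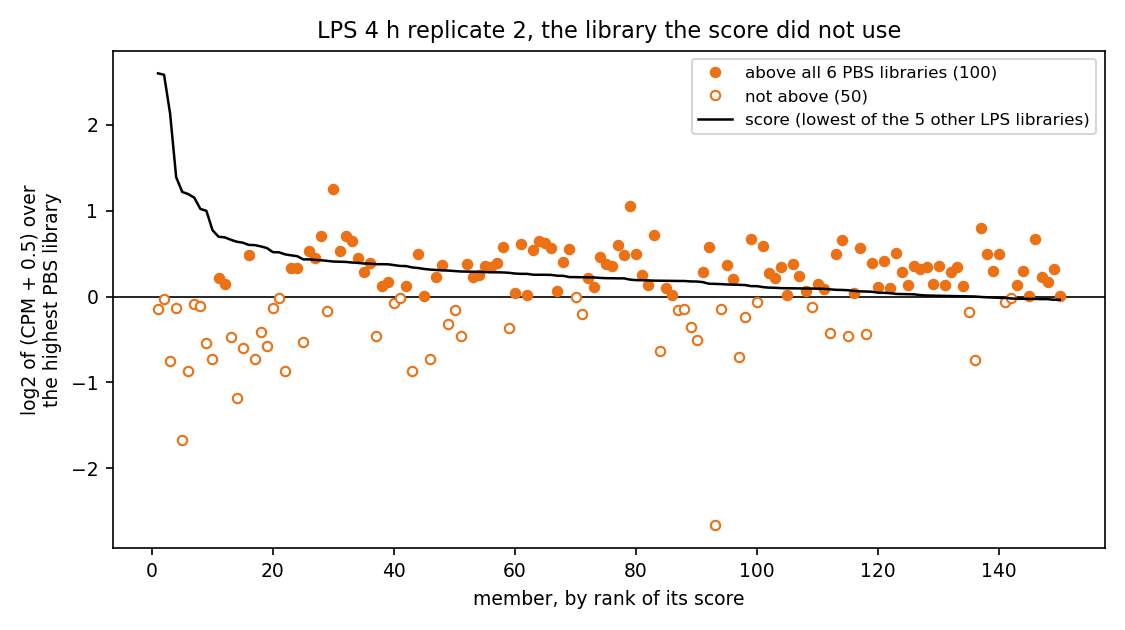
The x axis is the rank of a member and the y axis the log2 ratio of (CPM + 0.5) in LPS 4 h replicate 2 to that in the highest PBS library; filled points are the 100 members above 0, open points the other 50, and the black line is the score, the same ratio for the lowest of the other LPS libraries. Most of the first 25 points are open, and the lowest point is rank 93.

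The pools of a group differed in step across the members. The median log2 ratio of a member to its PBS 4 h mean was 0.48, 0.73 and 1.00 in LPS 24 h replicates 1 to 3, 1.16, 0.36 and 1.38 in LPS 4 h replicates 1 to 3, -0.50, -0.38 and -0.62 in the PBS 24 h pools, and 0.03, -0.14 and 0.09 in the PBS 4 h pools. Among the LPS 24 h pools, replicate 3 was the highest in 120 members, against 52.5% of all genes, and replicate 1 the lowest in 111, against 38.4%. With TMM-scaled totals these were 92 members against 29.2% of genes and 119 against 34.6%. Between LPS 4 h replicates 1 and 3, replicate 3 was higher in 114 members, against 37.4% of genes, and in 132 against 55.1% with TMM-scaled totals. The members thus shared an order of the LPS pools more often than all genes did, in the same libraries that had chosen them for 1 shape, and no test is drawn from it. LPS 24 h replicate 1 supplied the lowest LPS value, and so the score, in 99 members.

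Log2 CPM of 2 members correlated over the 12 libraries with a median r of 0.846, with quartiles of 0.771 and 0.903 over the 11175 pairs, which describes a set picked for the same shape. There were 7 pairs of members that shared a DN number, and their r ran from 0.888 to 0.996. These pairs were looked at after their values were seen. Whether such a pair is 1 gene in pieces or separate copies cannot be told apart from the table, so the number of distinct genes behind the 150 members is not known. Pairs of this kind did not always change alike with time. Ranks 14 and 71, of the same component, had log2 fold changes of LPS 24 h over LPS 4 h of 0.43 and -1.07 without LPS 4 h replicate 2, and ranks 32 and 47 had -0.06 and 1.62. Ranks 64 and 114 had -2.23 and -2.61.

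Of the 150 members, 124 had 1 assembled isoform and 26 (17.3%) had more, against 18.7% of the 20614 genes. The rule summed isoforms, so their split was not used by it. In 10 of the 26 members the leading isoform, the one with the most counts over all libraries, held at least 90% of the counts in every group mean. The median of its share over the 26 was 91.1% in LPS 24 h, 94.3% in LPS 4 h, 89.2% in PBS 24 h and 92.3% in PBS 4 h. In 17 members it differed by less than 5 percentage points between LPS 24 h and PBS 24 h. For most of the members with several isoforms the leading isoform thus had a similar mean share in LPS 24 h and PBS 24 h. The leading isoform's share was lower in every LPS 24 h pool than in every PBS 24 h pool in 4 of the 26, against 5.89% of the 3854 genes with several isoforms. It was higher in 1 of the 26, against 10.5%. At 4 h, the share in LPS replicates 1 and 3 was lower than in all PBS 4 h pools in 7 of the 26. It was higher than in all of them in 4. The share of all genes with these 4 h orders was not counted, so nothing is read from them.

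The largest shift was at rank 15, a member with 24 isoforms and a mean of 412 CPM. Its leading isoform held 21.8%, 24.3% and 16.4% of the counts in the LPS 24 h pools, 33.3%, 44.9% and 35.1% in LPS 4 h replicates 1 to 3, 55.3%, 57.2% and 62.5% in the PBS 24 h pools, and 25.5%, 27.9% and 37.1% in the PBS 4 h pools. The PBS 24 h pools were apart from all the others. The leading isoform itself had 128, 139 and 131 CPM in the LPS 24 h pools against 91.4, 94.8 and 76.6 CPM in the PBS 24 h pools. The other isoforms together had 458, 433 and 668 CPM in the LPS 24 h pools, 450, 134 and 459 CPM in LPS 4 h replicates 1 to 3, 74.0, 70.8 and 46.0 CPM in the PBS 24 h pools, and 276, 179 and 181 CPM in the PBS 4 h pools. The rise over PBS at 24 h was therefore mostly in the isoforms that did not lead, and these were already more abundant in the PBS 4 h pools than in the PBS 24 h pools.

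At rank 59, with 8 isoforms, the leading isoform held 32.7%, 29.3% and 28.3% in the LPS 24 h pools and 41.1%, 52.9% and 50.2% in the PBS 24 h pools. At rank 98, with 12 isoforms, it held 87.7%, 91.1% and 88.5% in the LPS 24 h pools, 98.3%, 95.1% and 98.5% in LPS 4 h replicates 1 to 3, 97.4%, 95.2% and 98.9% in the PBS 24 h pools, and 98.5%, 96.4% and 97.2% in the PBS 4 h pools. The lower share was seen at 24 h after LPS and in none of the other 9 libraries. The other isoforms of rank 98 together had 18.8, 13.3 and 20.9 CPM in the LPS 24 h pools against 2.35, 5.70 and 0.874 CPM in the PBS 24 h pools. In 4 members the share was lower in every LPS 24 h pool than in every PBS 24 h pool, and these 3 had the most isoforms. They were picked for that order, so no test is given. Ranks 55 and 91 shifted more in the mean than rank 98, but their pools overlapped. The mean share was 48.9% in LPS 24 h and 62.1% in PBS 24 h at rank 55. At rank 91 it went the other way, with 40.2% in LPS 24 h and 28.3% in PBS 24 h. Isoforms of a gene share sequence, and the split of counts among them is an estimate.

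**Figure D5:**
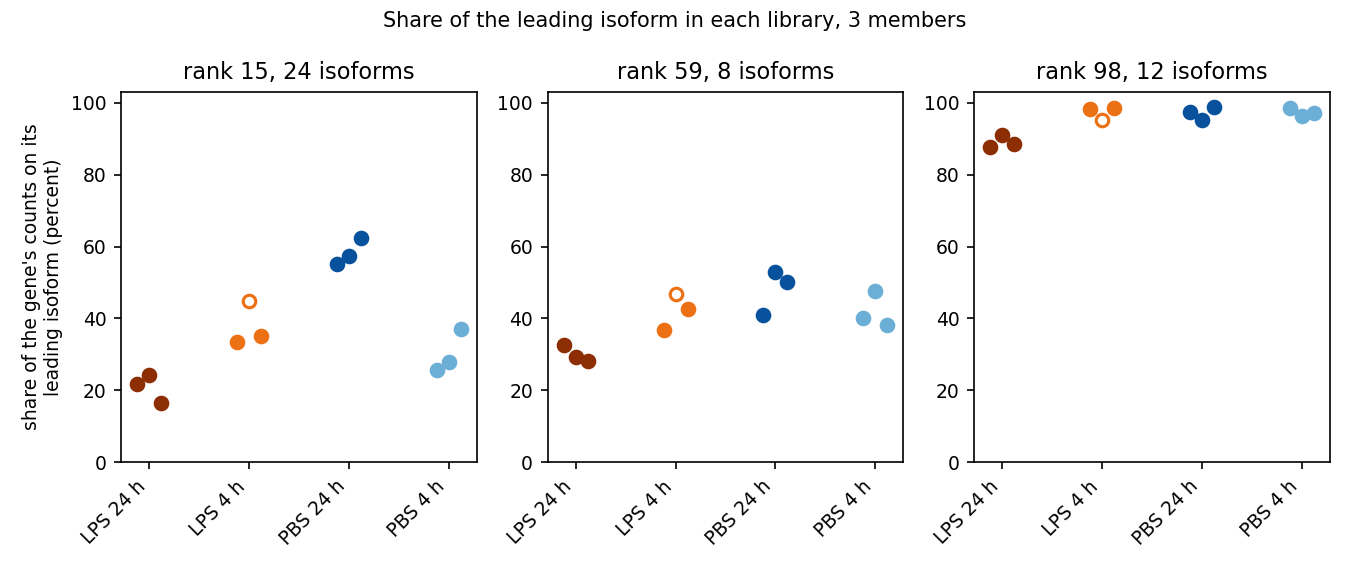
Share of a gene's counts on its leading isoform, in percent, in each library of the members at ranks 15, 59 and 98; filled points are libraries and the open point is LPS 4 h replicate 2. In each panel the LPS 24 h points are below the points of the other groups, and at rank 15 the PBS 24 h points are above all others.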

How the data were processed

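Spleen RNA of 12 pools was measured with a directional library kit, per the labels' protocols. Tools listed in the submitters' processing notes are FastQC, Trimmomatic 0.39, RSEM, Bowtie2 and DESeq2, whose roles are not stated there. The deposited values are estimated counts per assembled transcript, given as whole numbers for 58975 transcripts. How the transcripts were assembled and whether counting used strand is not given in any source used here.

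Counts were summed per Trinity gene, and CPM used the column totals. The members and lists were chosen with earlier results of these data known. Tests used edgeR 4.0.16 in R 4.3.3, by the quasi-likelihood method with robust estimation, 1 mean per group, TMM factors from 0.799 to 1.19 and the default expression filter, which left 32542 genes with all 12 libraries and 33524 without LPS 4 h replicate 2. P-values are two-sided and were adjusted by Benjamini-Hochberg over all genes tested. The SE of an edgeR log2 fold change is its size divided by the square root of the test's F statistic. The fit was checked on simulated data. The alternatives were DESeq2 1.42.0, median-ratio scaling, other filters, a replicate block, a fit of the 2 groups compared and each library left out.

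Same-numbered libraries of different groups had correlations of their deviations from -0.408 to 0.177, and different-numbered ones from -0.354 to 0.408. No pairing by number was thus seen in the levels. Such correlations cannot show whether same-numbered pools were handled together. No 2 libraries were alike within sampling noise, the lowest chi-square per degree of freedom being 27.6. The members named were those at ranks 1 and 2 and those with the 2 largest increases and 2 largest decreases in LPS 24 h against LPS 4 h without LPS 4 h replicate 2. By rank alone were given the ends of the threshold and the member with the highest mean over LPS pools. In that member LPS 4 h replicate 2 also lay lowest relative to PBS. The member where it lay highest, TRINITY_DN1203_c4_g1, was among those named. Other members given by rank alone were picked after their values were seen. Totals set the precision of low levels. The chi-square was taken over genes of all levels, so it cannot show whether the spread between pools exceeded sampling noise at low counts.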

Additional observations from a re-analysis of the deposited data

Results flagged for a closer look

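The LPS effect differed with time in 29 of the 150 members by edgeR's interaction test without LPS 4 h replicate 2. Over all genes, 5432 of the 33524 tested were called, a share not far below that of the members. The effect was larger at 24 h in 11 members (7.33%), against 9.53% of the genes tested, and smaller in 18 (12.0%), against 6.67%. The members named with such a difference were TRINITY_DN12155_c0_g1, at 3.55 on the log2 scale, and TRINITY_DN1203_c4_g1, at -6.10. In the same fit the 4 h rise of TRINITY_DN12155_c0_g1 was not called (edgeR adjusted p = 0.153). With all 12 libraries none of the members was called by edgeR, against 0.0154% of the genes tested. An unadjusted edgeR p below 0.05 was found in 23 members, against 5664 of the 32542 genes tested. DESeq2 called 9 members, against 1048 of the 42120 genes it tested. What made LPS 4 h replicate 2 lie apart was not tested.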

How the results depend on the processing

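Counts of members called moved with LPS 4 h replicate 2 in all 5 comparisons, and edgeR and DESeq2 differed with all 12 libraries. For LPS 24 h against LPS 4 h, 9 members were called, beside 2534 of the 32542 genes tested. The fit of the compared groups alone called 0 members and 0 genes. DESeq2 called 27 members, beside 5637 of 42120 genes. Without LPS 4 h replicate 2 it called 79 members, beside 11038 of 42134 genes. Leaving out each replicate in turn gave 0 to 75 members, the 75 without LPS 4 h replicate 2. It gave 0 without any of the other LPS pools and 2 to 3 without a PBS pool. Over all genes, 10113 were called without LPS 4 h replicate 2. Without another LPS pool 0 to 260 genes were called, and without a PBS pool 889 to 1673. The fits with 1 library left out tested 33291 to 33531 genes, and those of the compared groups alone 30762 to 30886. For PBS 24 h against PBS 4 h the count of members was 0, and 8 in the fit of the compared groups alone. It was 11 by DESeq2, 25 by DESeq2 without LPS 4 h replicate 2 and 0 to 12 with each replicate left out. Over all genes these counts were, in the same order, 5, 82, 342, 727 and 0 to 149. For the difference of LPS effects the count of members was 0, and 9 by DESeq2. It was 39 by DESeq2 without LPS 4 h replicate 2 and 0 to 29 with each replicate left out. Over all genes these counts were 5, 1048, 7138 and 0 to 5432. For LPS 4 h against PBS 4 h the count of members was 0, and 127 by DESeq2. It was 148 by DESeq2 without LPS 4 h replicate 2 and 0 to 146 with each replicate left out. Over all genes these counts were 1, 2288, 8422 and 0 to 7454. For LPS 24 h against PBS 24 h the count of members was 62, and 101 in the fit of the compared groups alone. It was 105 by DESeq2, 147 by DESeq2 without LPS 4 h replicate 2 and 3 to 119 with each replicate left out. Over all genes these counts were 1059, 1256, 2664, 4002 and 29 to 2059. Without PBS 24 h replicates 1, 2 and 3 it was 33, 3 and 24 members, beside 527, 29 and 307 genes. Without LPS 24 h replicates 2 and 3 it was 28 and 19 members, beside 316 and 169 genes. The cause of these shifts was not tested. Median-ratio scaling and the other filters moved no count of members called by over 1.5 times.

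With the replicate block, the counts of members called were 0, 0, 0, 0 and 43 in the order above. Over all 32542 genes tested they were 0, 0, 0, 0 and 473. The block without LPS 4 h replicate 2 gave 62, 10, 19, 135 and 94 members. Over all 33524 genes tested it gave 7555, 75, 3103, 4991 and 1003. The block without that library and the DESeq2 fits without it were added after seeing the data. The numbers are shared by the groups, but no pairing by number was seen in the levels. Of the 12 libraries, 1 correlated best with a library of its own number.

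TRINITY_DN1383_c3_g1 had log2 fold changes of LPS 24 h over LPS 4 h from -0.87 to 0.63 with each replicate left out, 0.63 without LPS 4 h replicate 3 and 0.09 without LPS 24 h replicate 1. TRINITY_DN1383_c1_g1 ran from -1.11 to 0.30, with 0.30 without LPS 4 h replicate 3. The call of TRINITY_DN12155_c0_g1 was lost in 12 of 20 alternatives and that of TRINITY_DN1203_c4_g1 in 7, with the direction kept. Of the 150 members, 100 stayed with TMM-scaled totals, 142 and 116 with 0.1 and 2 CPM added, and 134 and 124 with a mean of at least 1 and 5 CPM. With LPS 4 h replicate 2 in use, 101 stayed. With each library used by the ratios and the score left out in turn, 112 to 139 stayed. All 150 stayed without LPS 4 h replicate 2, which enters the rule only through the mean CPM. LPS 4 h replicate 2 was above all PBS libraries in 96 members with TMM-scaled totals. Depth limits members that were nearly absent in PBS pools, such as TRINITY_DN19704_c0_g1 with 3, 3 and 6 counts in the PBS 24 h pools.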

Other observations

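The members' assembly components held 10 other genes that were not members, 6 of them with a mean of at least 2 CPM. Of these 6, 5 passed the 1.6-fold ratio at 4 h and 2 at 24 h, and 4 were higher after LPS at both times. The most abundant of the 6, with a mean of 1868 CPM, was lower at both. Its log2 ratio of LPS to PBS was -0.31 at 4 h, by replicates 1 and 3, and -0.46 at 24 h. For each ratio alone no share over all genes is given, so nothing is read from these counts. Without LPS 4 h replicate 2, edgeR called 2 of the 6 higher after LPS at 4 h and 1 at 24 h. Over all genes tested, 11.1% were called higher at 4 h and 5.18% at 24 h, and with all 12 libraries the lowest edgeR adjusted p among the 6 was 0.092 at 4 h and 0.0718 at 24 h. Members are left out of these 6 by construction.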
